A study of Mus musculus with 18 samples.

Results

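The BCL2 family of apoptosis regulators was followed through the RNA sequencing of mouse prostate. Its 10 members were taken by gene symbol from the deposited tables: Bcl2, Bcl2l1, Mcl1, Bax, Bak1, Bid, Bad, Bcl2l11, Bbc3 and Pmaip1. All 10 were found among the 55469 genes listed. The study took total RNA of the lateral and ventral lobes from male mice of 3 genotypes, on a background given in the labels as C56NL/6N. WT mice carried both normal alleles of ELAC2, a nuclease that trims the ends of precursor tRNAs. KO mice lacked exon 8 of the gene in the prostate, where the Pb promoter drove the Cre recombinase, so that cells outside the reach of this promoter kept the gene. A537T mice carried threonine in place of an alanine of the protein in all tissues, on both copies, after CRISPR editing of the germ line. The study describes its mice as matched by age and litter. The same WT libraries serve both mutant lines, and the sample titles do not say from which line's litters they came. Each genotype was sampled at 10 and at 30 weeks of age, with 3 libraries in each of the 6 groups and 18 libraries in all. None of the groups analysed carried the TRAMP transgene. The study describes its replicates as biological, and the p-values measure the spread between these libraries.

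Proteins of this family decide whether the outer membrane of the mitochondrion stays closed. BCL2, BCL-XL (the product of Bcl2l1) and MCL1 hold the pore-forming effectors BAX and BAK in check. The BH3-only proteins BID, BAD, BIM (the product of Bcl2l11), PUMA (of Bbc3) and NOXA (of Pmaip1) bind the guardians, and some of them activate the effectors directly. Once the effectors form pores, cytochrome c leaves the mitochondrion and caspases are activated. In the prostate, the family is known for its part in the loss of luminal epithelium after androgen withdrawal, and BCL2 is known as a protein of basal epithelial cells. Much of the regulation of these proteins acts on the protein itself, by cleavage, phosphorylation or turnover, which RNA does not record.

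A promoter was listed by RefSeq on GRCm38.p6 for 9 of the 10 members, in 15 entries, since several genes have more than 1 start. The 250 bases before the start are shown for Bcl2, the tested member with the largest fitted difference from WT in 3 of the 4 comparisons, and for Mcl1, the most abundant and the least variable member. They lie at chr1:106714291-106714540 on the reverse strand and at chr3:95658471-95658720 on the forward strand. Capitals mark the GC box (GGGCGG on either strand) and the half-site of the cyclic AMP response element (TGACG on either strand), and the sequences read 5′ to 3′ along the gene.
Bcl2: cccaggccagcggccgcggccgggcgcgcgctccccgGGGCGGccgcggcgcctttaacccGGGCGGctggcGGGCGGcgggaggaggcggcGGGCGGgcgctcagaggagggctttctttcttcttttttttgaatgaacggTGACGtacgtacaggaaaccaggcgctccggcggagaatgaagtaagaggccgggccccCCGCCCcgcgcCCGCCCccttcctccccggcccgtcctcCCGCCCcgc
Mcl1: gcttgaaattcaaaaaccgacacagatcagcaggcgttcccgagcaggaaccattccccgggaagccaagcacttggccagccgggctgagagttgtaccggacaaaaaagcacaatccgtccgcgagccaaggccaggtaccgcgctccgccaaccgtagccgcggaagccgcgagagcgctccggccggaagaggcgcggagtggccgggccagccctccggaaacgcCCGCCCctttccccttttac
The Bcl2 window held 7 GC boxes and 1 half-site, and 74.8% of its bases were G or C. The Mcl1 window held 1 GC box and no half-site, with 64.4% G or C. Of the 32851 RefSeq windows of this length, 32.7% held at least 1 GC box, 0.411% held 7 or more and 17.8% held the half-site, and the median G and C content was 52.4%. A GC box occurred in 10 of the 15 windows of these 9 members and the half-site in 2 (those of Bcl2 and of 1 start of Bbc3). The TATA box TATAAA, present in 12.4% of all windows, occurred in 0 of them. These matches describe the letters of the windows and were not tested against the read counts.

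The libraries held 6569642 to 11225281 reads assigned to genes, with a median of 8586877. Elac2 itself had 111 to 119 normalized counts in KO against 124 to 166 in WT at 10 weeks, and 98.4 to 151 against 149.6 to 194 at 30 weeks. The gene counts do not separate exon 8, and neither difference passed limma (log2 fold change -0.31, adjusted p = 0.325, and -0.43, adjusted p = 0.478). Markers of prostate epithelium took 0.488 to 4.73% of reads in every library. The 9 markers of seminal vesicle, the gland next to the prostate that dissection was meant to remove, took 4.64 to 10.3% of reads in 8 libraries, namely WT library 10AF and KO libraries 13AF, 14AF and 15AF at 10 weeks and KO libraries 4AF and 6AF and A537T libraries 7AF and 9AF at 30 weeks, and no marker was at 0 there. WT library 11AF had 1.76%, the A537T libraries at 10 weeks 0.0375 to 0.191%, and the other 6 libraries at most 0.000818%, with 1 to 6 of the 9 markers at 0. The 12 skeletal muscle markers took 1.46 to 5.09% in WT at 10 weeks, 0.496 to 1.59% in A537T, 0.0258 to 0.827% in KO, and at most 0.0339% in any library at 30 weeks.

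Per length of exon, Mcl1 was the most abundant member, and Pmaip1 and Bbc3 were the least. The values below are normalized counts on a scale shared by all 18 libraries, divided by the length of all annotated exons in kilobases, which is the same length for every library. Mcl1 averaged 252 normalized counts per kb over the 18 libraries, from 218 to 308. Bcl2l1 averaged 86.9 (from 51.1 to 135), and Bax averaged 82.7 (from 61.9 to 103). Mcl1 exceeded Bcl2l1 in 18 of 18 libraries, whereas Bcl2l1 exceeded Bax in 11 of 18, and their ranges overlapped in all 6 groups. Bad averaged 35.5, Bak1 28.7 and Bcl2 25.0 normalized counts per kb, and these neighbours changed places between libraries: Bad exceeded Bak1 in 13 of 18, without overlap in 2 of the 6 groups, and Bak1 exceeded Bcl2 in 12 of 18. Bcl2l11 followed with 16.1, below Bcl2 in 15 of 18 libraries, then Bid with 8.21, below Bcl2l11 in 18 of 18. Bbc3 averaged 6.78 and Pmaip1 3.08. Bbc3 exceeded Pmaip1 in 15 of 18 libraries, although its mean was the lower in KO at 30 weeks (4.13 against 4.865), and these 2 rested on 5 to 31 and 2 to 19 reads a library. Of the summed level per kb of the family, Mcl1 made up 41.9 to 54.2%, Bcl2l1 10.6 to 20.2%, Bax 12.8 to 18% and Bcl2 2.58 to 7.04%. Mcl1 also varied least, with a coefficient of variation over the 18 libraries of 9.42%, against 14.6% for Bcl2l11, 15.2% for Bax, 33.8% for Bcl2 and 60.7% for Bbc3. Median reads a library were 840 for Mcl1, 120 for Bcl2l11, 124 for Bax, 229 for Bcl2 and 12.5 for Bbc3. Lower counts spread more by counting alone, and that part of the coefficients was not separated. This is RNA of whole tissue, in which fewer cells of a type and less RNA per cell cannot be told apart.

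**Figure D1:**
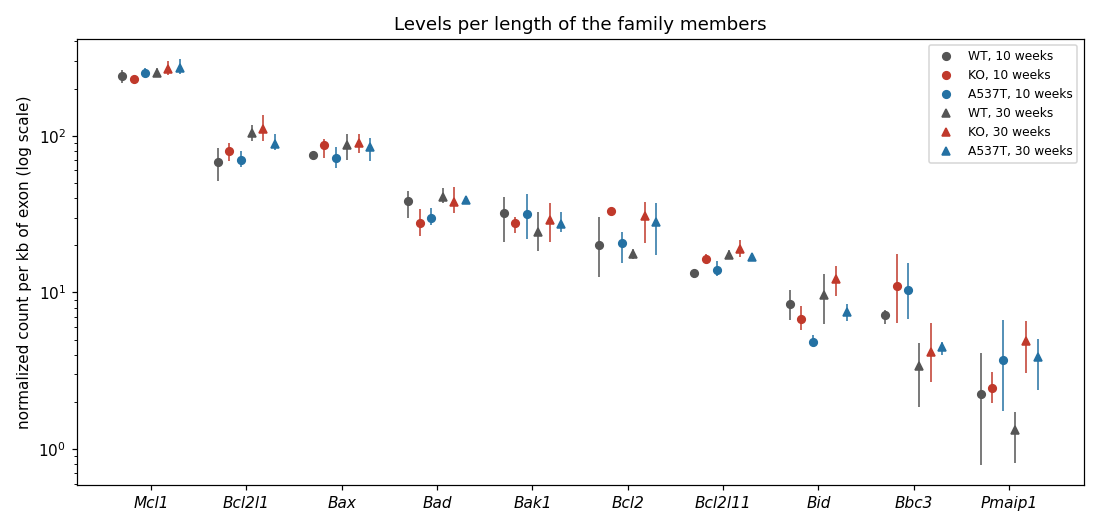
Mean normalized count per kb of exon (log scale) of each member in each of the 6 groups, with lines from the lowest to the highest of 3 libraries (circles, 10 weeks; triangles, 30 weeks). Mcl1 stands above the other members in every group, Bcl2l1 and Bax overlap in all 6 groups, and Bad and Bak1 do not in 2 of the 6.

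Among the guardians, Bcl2 (chr1:106538178-106714274, reverse strand, GRCm38) had higher means in KO than in WT at both ages, and the difference did not pass the test across all genes. For each mutant the WT values are those listed beside it in the same deposited table, in normalized counts, and KO and A537T share these WT libraries at each age. At 10 weeks Bcl2 was at 266, 149 and 108 in WT libraries 10AF, 11AF and 12AF and at 284, 279 and 303 in KO libraries 13AF, 14AF and 15AF. The groups did not overlap, although the highest WT library lay close to the KO libraries and the other 2 well below them. The log2 fold change was 0.82 (95% interval 0.08 to 1.56, n = 3 libraries a group) with limma adjusted p = 0.231. At 30 weeks Bcl2 was at 177, 164 and 154 in WT libraries 1AF, 2AF and 3AF and at 358, 195 and 323 in KO libraries 4AF, 5AF and 6AF. The WT libraries lay close together, and 2 of the KO libraries stood far above the third, which was itself above WT. This gave a log2 fold change of 0.78 (0.23 to 1.32) with limma adjusted p = 0.393.

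In A537T mice at 10 weeks Bcl2 was at 205, 142 and 220 normalized counts in libraries 16AF, 17AF and 18AF against 281, 154 and 112 in WT, so that the groups overlapped. On the log2 scale the difference was 0.13 (-0.69 to 0.96), with limma adjusted p = 0.946. At 30 weeks it was at 275, 166 and 354 in libraries 7AF, 8AF and 9AF against 174, 161 and 152 in WT. Here 2 of the A537T libraries were high and 8AF lay within the WT range. As a fold change this was 1.56 (1.01 to 2.40), with limma adjusted p = 0.364.

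The libraries with high Bcl2 were those with many seminal vesicle reads. On the shared scale, the 8 libraries with over 4% of reads on these markers, a limit set after the values were seen, held 266 to 348 normalized counts of Bcl2, and the 10 other libraries, of every genotype, held 114 to 221. No library lay between, and the same split did not separate the levels of any other member. Because the limit was placed with these values known, the gap is a description only. With the limit at 1% instead, the 9 libraries above it held 155 to 348 normalized counts of Bcl2. These overlapped with the 3 libraries at 0.0375 to 0.191% (142 to 221) and the 6 with the fewest such reads (114 to 190). KO library 5AF and A537T library 8AF, which had almost no such reads, held 190.0 and 159.8 normalized counts of Bcl2 against 150.4 to 172 in the WT libraries of that age, while WT library 10AF, with 4.64%, held 279. With 4AF and 6AF left out, leaving 1 KO library (5AF), the log2 fold change of Bcl2 in KO at 30 weeks was 0.24. With 7AF and 9AF left out, leaving 1 A537T library (8AF), that in A537T was 0.03. The libraries left out had the highest Bcl2 of their groups, so a smaller difference followed from the choice. With the seminal vesicle markers as a covariate, the log2 fold change of Bcl2 was 0.41 (limma adjusted p = 0.867) in KO at 10 weeks. At 30 weeks it was 0.27 (limma adjusted p = 0.888) in KO and 0.07 (limma adjusted p = 0.978) in A537T. All 3 KO libraries at 10 weeks were among the 8, so that at this age no KO library was without such reads. At 30 weeks no WT library held more than 0.000335% of such reads. Genotype and these reads thus largely ran together in KO at 10 weeks and in KO and A537T at 30 weeks. The covariate fits cannot tell their parts in the Bcl2 levels apart. Basal epithelial markers took 0.0140 to 0.0176% of reads in KO and 0.00678 to 0.0121% in WT at 10 weeks, without overlap, and were highest in A537T libraries 17AF and 18AF (0.0205 and 0.0424%), whose Bcl2 lay below that of the 8 libraries. Smooth muscle markers took 0.321 to 0.529% in the 8 libraries with high Bcl2, 0.453 and 0.857% in 17AF and 18AF, and 0.153 to 0.272% in the 8 others. B and plasma cell markers took at most 0.0352% in A537T at 30 weeks and at most 0.00425% in any other library, and the part of these 3 lists in the Bcl2 levels was not tested. The result also rested on single libraries. With each library left out in turn, the log2 fold change of Bcl2 lay between 0.53 and 1.176 in KO at 10 weeks, 0.61 and 1.04 in KO at 30 weeks, and 0.40 and 0.94 in A537T at 30 weeks. Bcl2 passed limma in 1 of these fits in each comparison, without 10AF (adjusted p = 0.0214), 5AF (adjusted p = 0.00814) and 8AF (adjusted p = 0.0191), and the same fits called 2886 (19.2%), 944 (6.41%) and 1224 (8.27%) of all genes. In the other fits that left out 1 library, its adjusted p was not below the threshold. With the skeletal muscle markers as a covariate, the log2 fold change in KO at 10 weeks was 0.53 (limma adjusted p = 0.999).

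**Figure D2:**
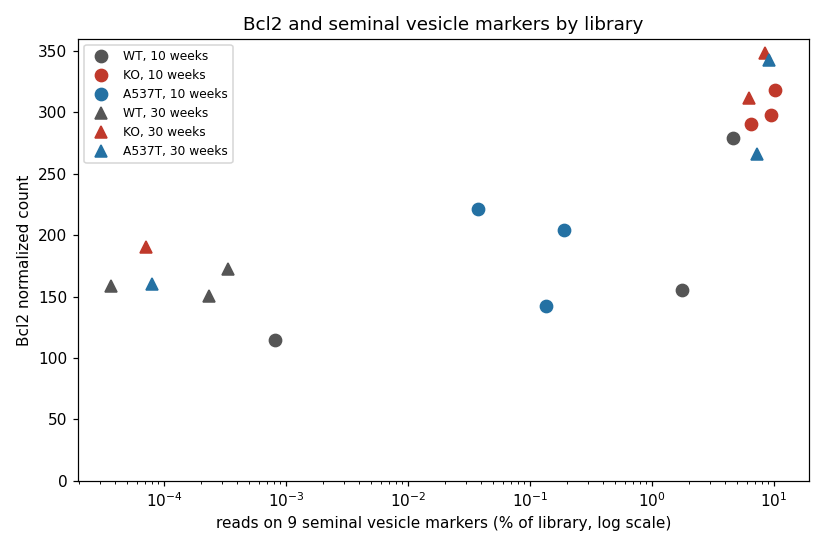
Bcl2 (normalized count, shared scale) against the percentage of reads on 9 seminal vesicle markers (log scale) in each of 18 libraries; circles are 10 weeks, triangles 30 weeks, and colours the genotypes. The 8 libraries at 4.64% and more lie at 266 to 348, and the others at 114 to 221.

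Bcl2l1 (chr2:152780668-152831728, reverse strand) showed no difference from WT that passed the test in any of the 4 comparisons. At 10 weeks it was at 365, 301 and 221 normalized counts in WT and at 355, 396 and 299.5 in KO (log2 fold change 0.26, -0.24 to 0.77). In A537T at that age it was at 367, 288 and 301 against 371, 299 and 222 in WT, with a log2 fold change of 0.12 (-0.38 to 0.63). At 30 weeks it was at 550.0, 437 and 495 in WT and at 489.5, 637 and 441 in KO, with a log2 fold change of 0.07 (-0.32 to 0.46). In A537T at 30 weeks it was at 393, 492 and 386 against 569, 451 and 513, with 2 libraries below all WT libraries and a log2 fold change of -0.27 (-0.61 to 0.06, limma adjusted p = 0.430).

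Mcl1 (chr3:95658788-95663176, forward strand), whose protein is short-lived and depends on steady synthesis, was the steadiest guardian. In WT and KO it was at 712, 807 and 848 against 731, 779 and 754.5 normalized counts at 10 weeks, and at 954, 848 and 840.5 against 882, 1060 and 863 at 30 weeks. The groups overlapped in each of the 4 comparisons. Fitted log2 fold changes at 10 weeks were -0.06 (-0.34 to 0.21) for KO and 0.09 (-0.21 to 0.39) for A537T, and those at 30 weeks 0.08 (-0.20 to 0.36) and 0.13 (-0.15 to 0.41).

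The effectors Bax (chr7:45461697-45466898, reverse strand) and Bak1 (chr17:27019810-27029009, reverse strand) also overlapped with WT in every comparison. Bax was at 107, 117 and 117 normalized counts in WT and at 141, 109 and 143 in KO at 10 weeks, with 2 KO libraries above and 1 within the WT range. Its log2 fold changes were 0.19 (-0.21 to 0.60) and 0.06 (-0.39 to 0.52) in KO at 10 and 30 weeks, and 0.00 (-0.42 to 0.42) and -0.02 (-0.50 to 0.46) in A537T. Bak1 spread more widely inside WT, from 47.9 to 93.9 at 10 weeks. Its log2 fold changes lay between -0.16 (-0.84 to 0.52) in KO at 10 weeks and 0.26 (-0.45 to 0.96) in KO at 30 weeks.

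Of the BH3-only genes, Bid (chr6:120891930-120916853, reverse strand), whose product is cleaved by caspase-8 and carries the death receptor signal to mitochondria, was lower in A537T at 10 weeks. It was at 38.3, 30.3 and 23.4 normalized counts in WT and at 19.2, 16.2 and 16.1 in A537T, with every A537T library below every WT library. The log2 fold change was -0.78 (-1.51 to -0.05) and did not pass the correction (limma adjusted p = 0.746). The values rest on 16 to 59 reads a library. In A537T at 30 weeks the log2 fold change was -0.46 (-1.20 to 0.28), and in KO it was -0.28 (-0.99 to 0.43) at 10 weeks and 0.36 (-0.40 to 1.13) at 30 weeks. The gene overlaps Bcl2l13 on the other strand, and the reads were counted with their strand. It also overlaps Gm44260 on its own strand, as Bax does Gm45808 and Bcl2 does Gm37053 and Mir3473f, and strand does not separate reads of these pairs, so that the counts are uncertain to that extent.

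Bcl2l11 (chr2:128126038-128162547, forward strand), which encodes BIM, was at 106, 95.8 and 102 normalized counts in WT and at 118, 123 and 135 in KO at 10 weeks. Each KO library was above each WT library, by a log2 fold change of 0.30 (-0.05 to 0.65) with limma adjusted p = 0.301. At 30 weeks the KO libraries, at 139, 150.5 and 179, overlapped with WT at 142, 136 and 153.5, and the log2 fold change was 0.11 (-0.23 to 0.45). In A537T it was 0.06 (-0.33 to 0.46) at 10 weeks and -0.06 (-0.36 to 0.24) at 30 weeks.

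Bad (chr19:6941861-6951899, forward strand), whose product is kept inactive by phosphorylation under growth factor signals, was at 109, 98.3 and 72.4 in WT and at 63.6, 56.2 and 83.5 in KO at 10 weeks. The KO libraries were low on average but overlapped with WT, and the log2 fold change was -0.45 (-1.02 to 0.12, limma adjusted p = 0.331). In the other comparisons its log2 fold changes were -0.13 (-0.59 to 0.34) in KO at 30 weeks, -0.18 (-0.71 to 0.34) in A537T at 10 weeks and -0.05 (-0.41 to 0.32) in A537T at 30 weeks.

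Bbc3 and Pmaip1, both known targets of p53, had few reads. Bbc3 (chr7:16308393-16318205, forward strand) was at 12.7, 15.8 and 15.3 normalized counts in WT and at 12.9, 18.7 and 35.4 in KO at 10 weeks, where 1 KO library was high. Its log2 fold change at that age was 0.47 (-0.54 to 1.48) for KO against 0.43 (-0.50 to 1.36) for A537T. At 30 weeks its mean was under the minimum of 10 normalized counts set for the test. Pmaip1, on chromosome 18, stayed under that minimum at both ages. At 30 weeks it was at 4.83, 2.30 and 3.96 normalized counts in WT, at 8.61, 13.95 and 18.6 in KO and, in the other table, at 12.1, 6.75 and 14.2 in A537T against 5.61, 2.29 and 3.96 in WT. No mutant library overlapped with WT at this age. Among genes averaging at least 10, the groups did not overlap for 16.3% in KO and 18.6% in A537T. Pmaip1 is under that level and was not in these shares. With the minimum lowered to 1, the log2 fold change was 1.63 (0.53 to 2.73) in KO and 1.28 (0.13 to 2.43) in A537T, with limma adjusted p = 0.422 and 0.374. The prior value of 1 that is added before the logarithm pulls such low counts together, and the read counts behind them were at most 19.

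**Figure D3:**
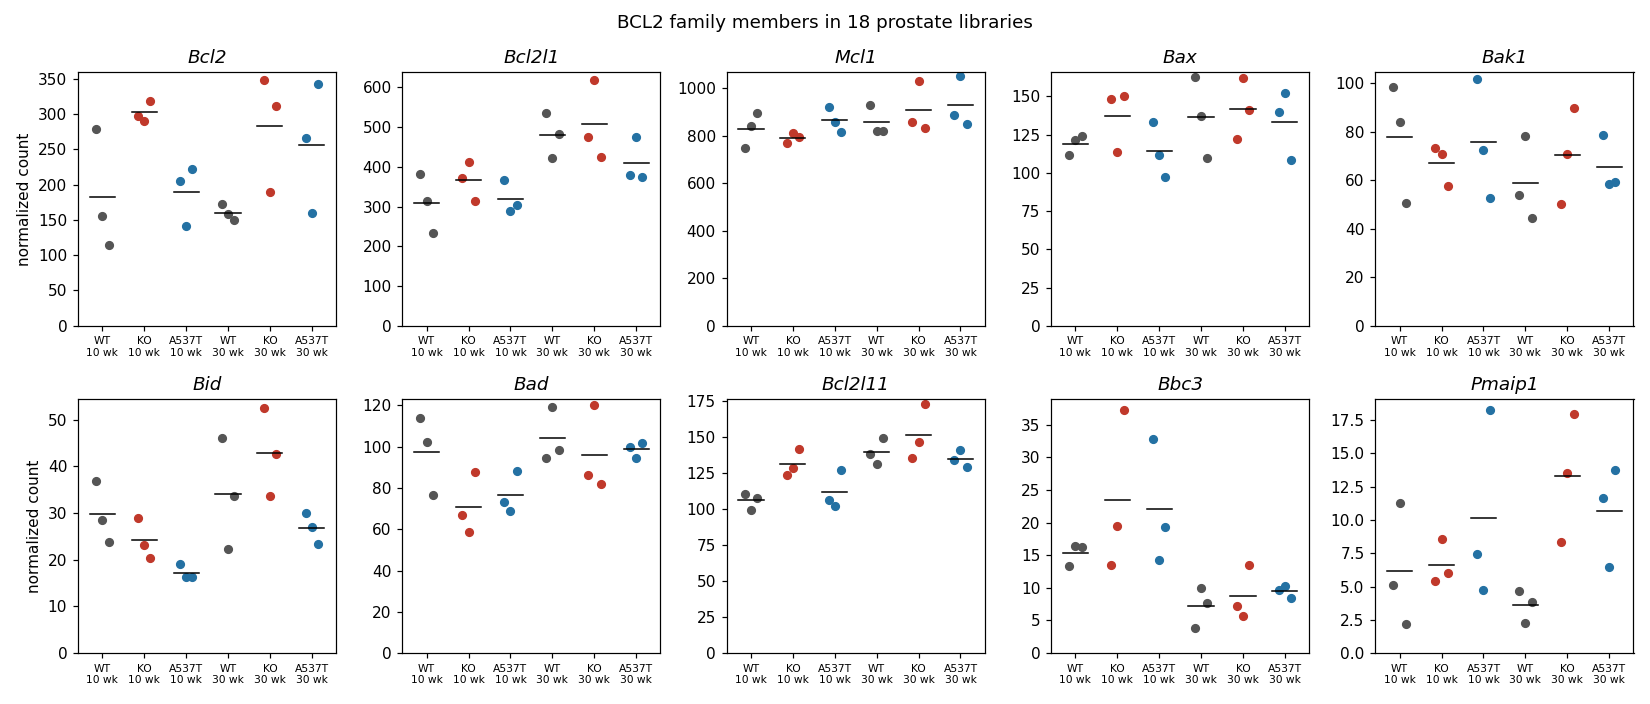
Normalized counts (shared scale, axes from 0) of the 10 members in the 18 libraries, by genotype and age; points are libraries and lines the means of 3. Bcl2 splits into high and low libraries within the groups, Mcl1 is level, and Bbc3 is lower at 30 weeks than at 10 weeks.

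Counted over the family, 0 of the 9 tested members passed limma at an adjusted p of 0.05 in KO at 10 weeks and in A537T at 10 weeks, and 0 of the 8 tested at 30 weeks in either. All genes gave the same: with limma 0% of genes passed in KO at 10 weeks (of 15089 tested), in KO at 30 weeks (of 14729), in A537T at 10 weeks (of 15131) and in A537T at 30 weeks (of 14789). On the recovered reads edgeR also called 0 genes in each comparison, and DESeq2 called 714 (KO, 10 weeks), 280 (KO, 30 weeks), 90 (A537T, 10 weeks) and 473 (A537T, 30 weeks), none of them a member. Over all alternatives the number of genes called ranged from 0 to 2886, 0 to 944, 0 to 90 and 0 to 1224 in the order KO at 10 weeks, KO at 30 weeks, A537T at 10 weeks and A537T at 30 weeks. At an unadjusted p under 0.05, limma had 1 of 9 members (Bcl2) in KO at 10 weeks beside 19.4% of all genes (2930), 1 of 8 (Bcl2) in KO at 30 weeks beside 11% (1616), 1 of 9 (Bid) in A537T at 10 weeks beside 6.43% (973) and 1 of 8 (Bcl2) in A537T at 30 weeks beside 13.6% (2016). Groups without overlap were found for Bcl2 and Bcl2l11 among the 9 members in KO at 10 weeks, beside 26.0% of all genes, for Bcl2 among the 8 in KO at 30 weeks beside 16.3%, for Bid among the 9 in A537T at 10 weeks beside 11.9%, and for 0 of the 8 in A537T at 30 weeks beside 18.6%. These shares of the tested members were near the background. Pmaip1, under the minimum mean and without overlap in both mutants at 30 weeks, was not among them. The median log2 fold change of the tested members was 0.19, 0.10, 0.06 and -0.03 in KO at 10 weeks, KO at 30 weeks, A537T at 10 weeks and A537T at 30 weeks, against medians of all genes between -0.01 and 0.01.

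**Figure D4:**
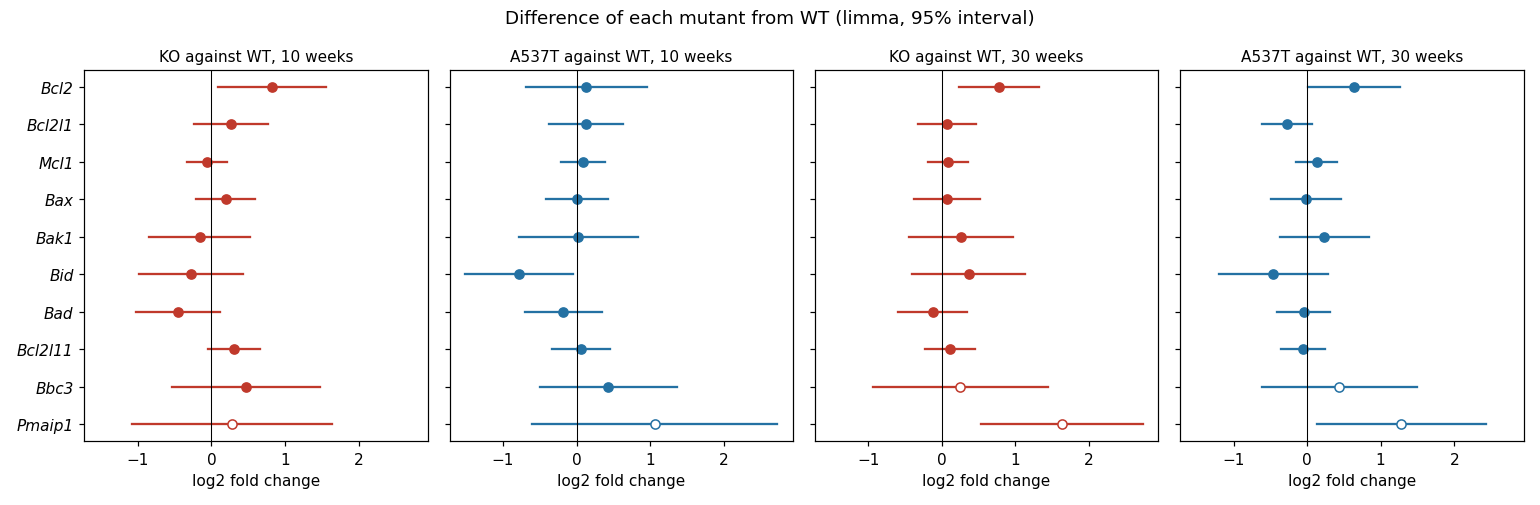
Log2 fold change of each member in each mutant against WT of the same age, with the 95% interval from limma (3 libraries a group); open circles are members under the minimum mean of 10, fitted with the minimum at 1. The intervals of Bcl2 lie above 0 in 3 comparisons and that of Bid below 0 in A537T at 10 weeks, and 0 of the filled points passed the correction.

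Age was compared within each genotype in 1 fit over all 18 libraries, on the shared scale. Bcl2l1 rose between 10 and 30 weeks in WT. It was at 382, 313 and 234 normalized counts at 10 weeks and at 535, 422 and 482 at 30 weeks. The log2 fold change was 0.65 (0.26 to 1.05) with limma adjusted p = 0.0323. It was the only 1 of 9 tested members called, beside 12.3% of all genes. The lowest library, 12AF, had the most skeletal muscle reads (5.09%, against 2.60% in 11AF and 1.46% in 10AF), muscle differed between the ages in all WT libraries, and its part in the result was not tested. The log2 fold change was 0.47 (limma adjusted p = 0.140) without 12AF and 0.57 (adjusted p = 0.133) without 1AF, and the call was also lost without 3AF (adjusted p = 0.0864) or 11AF (adjusted p = 0.0601), with scaling to the same total (adjusted p = 0.0630) and with the seminal vesicle markers as a covariate (adjusted p = 0.108).

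In KO Bcl2l1 had a log2 fold change with age of 0.46 (0.06 to 0.85, limma adjusted p = 0.181) and in A537T of 0.36 (-0.04 to 0.75, adjusted p = 0.298). Bcl2l11 moved the same way in WT, from 99.6 to 111 normalized counts at 10 weeks to 131.5 to 149 at 30 weeks. Its log2 fold change of 0.39 (0.13 to 0.66) missed the threshold with limma (adjusted p = 0.0526) and passed it with edgeR (adjusted p = 0.0380). Bbc3 had lower values at 30 weeks in all 3 genotypes. It went from 13.3 to 16.5 at 10 weeks to 3.91 to 10.03 in WT, from 13.5 to 37.25 to 5.72 to 13.45 in KO, and from 14.3 to 32.85 to 8.48 to 10.2 in A537T. Its log2 fold changes were -1.06 (-2.0 to -0.12), -1.28 (-2.22 to -0.34) and -1.07 (-2.01 to -0.13), with limma adjusted p = 0.135, 0.118 and 0.177. Bid was higher at 30 weeks in KO by a log2 fold change of 0.79 (0.21 to 1.38, limma adjusted p = 0.121) and in A537T by 0.61 (0.02 to 1.20, adjusted p = 0.224), and close to level in WT (0.15, -0.44 to 0.74). No member passed in KO, beside 2.40% of all genes, or in A537T, beside 6.26%. Mcl1 differed with age by log2 fold changes of only 0.05 to 0.19.

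KO and A537T were also compared with each other. At 10 weeks Bcl2 was higher in KO, at 290.4 to 318 against 142 to 221 normalized counts, with a log2 fold change of 0.70 (0.02 to 1.37, limma adjusted p = 0.289). These are the same KO libraries that had 6.55 to 10.3% of seminal vesicle reads, against 0.0375 to 0.191% in A537T. With these markers as a covariate the log2 fold change was 0.24 (limma adjusted p = 0.860). The shares of these reads did not overlap between the genotypes, so this fit cannot tell their parts apart. At 30 weeks Bid was higher in KO, at 33.6 to 52.6 against 23.3 to 30.1, with a log2 fold change of 0.65 (0.06 to 1.23, limma adjusted p = 1). No member passed at either age, beside 0.113% of all genes at 10 weeks and 0.0265% at 30 weeks. At an unadjusted p under 0.05, limma had 1 of 9 members at 10 weeks (Bcl2), beside 2480 of 15101 genes. At 30 weeks it had 1 of 9 (Bid), beside 387 of 15101 genes. The difference of a mutant effect between the ages did not pass for any member, beside 0% of all genes for KO (2157 genes at an unadjusted p under 0.05 with limma, and 0 called with edgeR) and 0.0728% for A537T. For Bcl2 this difference was -0.05 (-1.01 to 0.91) in KO and 0.48 (-0.48 to 1.44) in A537T on the log2 scale. For Bid it was 0.64 (-0.19 to 1.47) and 0.45 (-0.38 to 1.29).

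Ratios between members within a library do not depend on its scaling. They are given as log2 ratios of reads, with mean and SD over 3 libraries and without a test. Mcl1 to Bax was the narrowest, from 2.38 to 3.07 over the 18 libraries, with means of 2.80 ± 0.06 (WT), 2.54 ± 0.26 (KO) and 2.93 ± 0.14 (A537T) at 10 weeks, and 2.66 ± 0.21, 2.68 ± 0.13 and 2.81 ± 0.15 at 30 weeks. In the same order of groups, Bcl2l1 to Bax averaged 1.35 ± 0.43, 1.42 ± 0.40 and 1.49 ± 0.13 in the younger mice, then 1.825 ± 0.27, 1.83 ± 0.21 and 1.62 ± 0.17 in the older mice. Bcl2 to Bax averaged 0.52 ± 0.73, 1.15 ± 0.18 and 0.72 ± 0.43 in the younger mice, then 0.25 ± 0.19, 0.96 ± 0.66 and 0.89 ± 0.80 in the older mice. Its large SDs in WT at 10 weeks and in both mutants at 30 weeks go with the split of the Bcl2 levels described above. Among activators, Bcl2l11 to Mcl1 was -2.96 ± 0.18 for WT, -2.59 ± 0.10 for KO and -2.96 ± 0.24 for A537T at 10 weeks, where the KO libraries, at -2.66 to -2.48, lay above WT at -3.08 to -2.75. Bid to Mcl1 averaged -4.82 ± 0.45, -5.05 ± 0.28 and -5.66 ± 0.07 in the younger mice, then -4.71 ± 0.45, -4.42 ± 0.47 and -5.12 ± 0.21 in the older mice, lowest in A537T at both ages.

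**Figure D5:**
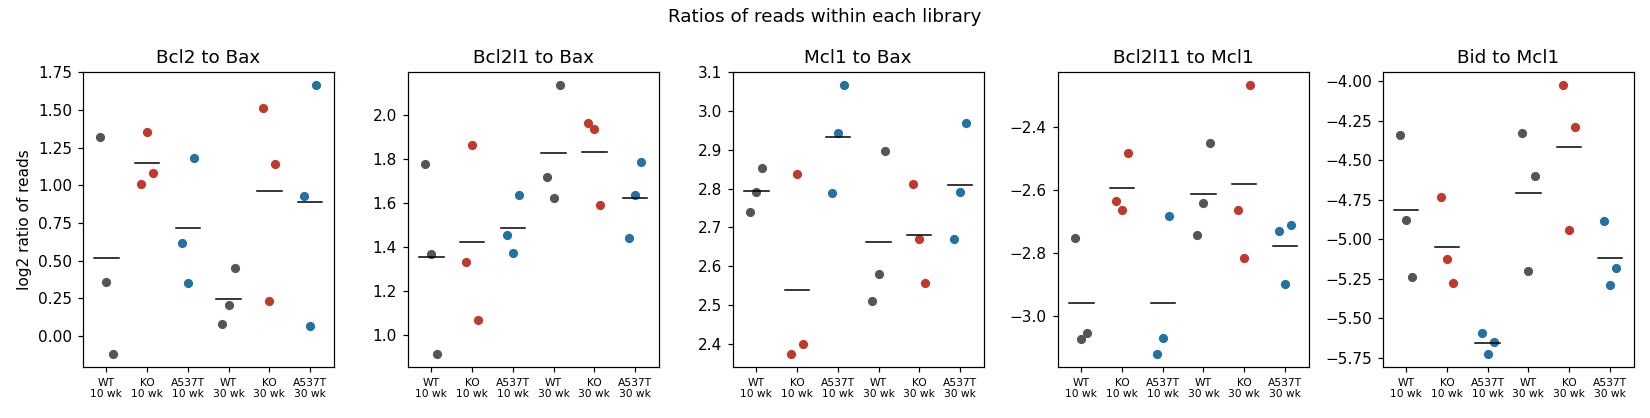
Log2 ratios of reads between pairs of members in each of 18 libraries, by genotype and age; points are libraries and lines the means of 3, and the axes do not start at 0. The ratio of Bcl2 to Bax spreads from -0.12 to 1.66 and that of Mcl1 to Bax only from 2.38 to 3.07.

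Genes whose pattern was most like that of a member were sought over the 18 libraries among 9998 well measured genes, by Pearson correlation of log2 values relative to WT of the same table. The libraries share their composition, and the correlations are a description. For Bcl2 they were Arl4d (r = 0.954), Plxnb1 (r = 0.951) and Nt5e (r = 0.949). Plxnb1, a semaphorin receptor, was at 468.5 to 594 normalized counts in the 8 libraries with over 4% of seminal vesicle reads and at 96.5 to 352 in the others. Plxnb1 was picked for its likeness to Bcl2 over these libraries, so such a split follows in part from the choice. For the other members the nearest gene was less close, at 0.864 for Mcl1 (Qtrt1), 0.843 for Bcl2l1 (Wif1), 0.811 for Bax (Gm38042), 0.808 for Bad (Cdca4), 0.791 for Bcl2l11 (Hp1bp3), 0.764 for Bid (Map7) and 0.720 for Bak1 (Mtrr). Among pairs of members, the closest was Bcl2 with Pmaip1, at r = 0.501.

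The pathway around the family was followed in lists written with earlier results of these data known. Of 19 other BCL2 relatives, 13 were tested at 10 weeks and 14 at 30 weeks, and 0 passed against WT in either mutant. Bnip3, a mitochondrial BH3-only-like protein of hypoxia and mitophagy, was at 392.3, 636 and 942 normalized counts in WT and at 209, 229.5 and 133 in KO at 10 weeks, without overlap. Its log2 fold change of -1.73 had limma adjusted p = 0.183, and the WT libraries rank in Bnip3 as they do in skeletal muscle reads. Bok, an effector-like relative, was at 7.24, 13.8 and 15.8 in WT and at 50.4, 18.4 and 32.6 in KO at 30 weeks (log2 fold change 1.34, limma adjusted p = 0.419), highest in the 2 KO libraries with seminal vesicle reads. The fits with muscle or seminal vesicle markers as a covariate are not given for Bnip3 and Bok, and these orders of libraries are a description only. The abundant relatives Bcl2l2 and Becn1 differed from WT by log2 fold changes of -0.27 to 0.08. Of the 14 tested with age, Bnip2 (-0.53, limma adjusted p = 0.0141) and Bcl2l14 (-0.54, adjusted p = 0.0280) fell in A537T, beside 6.26% of all genes. In WT and KO 0 of them passed. A537T libraries had 0.496 to 1.59% of skeletal muscle reads at 10 weeks and at most 0.0162% at 30 weeks, and the part of muscle was not tested.

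The caspases, inhibitors and mitochondrial proteins downstream of the family gave 0 calls of 21 against WT in each of the 4 comparisons. In KO at 10 weeks, Vdac3 and Vdac1, channels of the outer mitochondrial membrane, and Cycs, which encodes cytochrome c, had log2 fold changes of -1.35, -1.17 and -1.28 (limma adjusted p = 0.183, 0.183 and 0.189). Vdac1 was at 1324, 1746 and 3237 normalized counts in WT libraries 10AF, 11AF and 12AF, and Cycs at 639.8, 1031 and 1973. Both follow the order of the skeletal muscle reads of these libraries, which were fewer in KO. The fit with muscle markers as a covariate at this age is not given for these genes. The abundant inhibitor Birc6 differed by -0.14 to 0.14. With age in WT, 10 of the 21 were called, beside 12.3% of all genes: Casp6 (log2 fold change 0.76), Casp2 (0.39) and Birc3 rose, and Vdac1 (-1.17), Vdac2 (-0.51), Vdac3 (-1.47), Cycs (-1.20), Opa1 (-0.48), Endog (-0.86) and Birc5 (-1.89) fell. These WT libraries differ in skeletal muscle reads between the ages, and its part was not tested. The death receptor pathway had 0 calls of 12 or 13 tested against WT. Fas and Tnfrsf10b, both receptors and both known p53 targets, were higher in KO at 10 weeks by log2 fold changes of 1.17 and 1.36 (limma adjusted p = 0.183 for both), at 104, 73.8 and 134 against 64.6, 38.3 and 34.7 for Fas. Over all tables Fas was at 64.6 to 134 in the 8 libraries with over 4% of seminal vesicle reads and at 23.3 to 56.4 in the others. The fit with these markers as a covariate is not given for Fas. Cflar and Tnfrsf21 differed by -0.14 to 0.12, and Tnfrsf21 rose with age in WT (0.85, limma adjusted p = 0.00863) and A537T (0.82, adjusted p = 0.0190), as did Fadd in WT (0.49, adjusted p = 0.0303), while Dapk1 fell in A537T (-0.74, adjusted p = 0.00372). These were the calls with age among 12 tested, beside 12.3% of all genes in WT and 6.26% in A537T. Skeletal muscle reads differ between these ages, and their part was not tested.

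Of 16 genes of p53 and its targets, 0 passed against WT, and in KO at 10 weeks 6 were higher and 1 lower at an unadjusted p under 0.05, beside 19.4% of all genes in either direction. The 6 include Trp63 (log2 fold change 0.51), a relative of p53 that also serves here as a basal epithelial marker. They also include Fas and Tnfrsf10b, already given in the death receptor list, so the count does not describe p53 targets alone. Phlda3 had log2 fold changes at 10 weeks of -1.41 for KO and -0.77 for A537T, and at 30 weeks of 0.51 and 0.64 (limma adjusted p = 0.183, 0.746, 0.438 and 0.368). It fell with age in WT (-2.45, limma adjusted p = 0.000230), as did Ccng1 (-1.15, adjusted p = 0.00402) and Eda2r (-1.06, adjusted p = 0.00595), and in A537T Cdkn1a (-1.74, adjusted p = 0.0049) and Eda2r (-0.86, adjusted p = 0.0323) fell. Of the 16, these were the calls with age, beside 12.3% of all genes in WT and 6.26% in A537T. At 10 weeks Phlda3 was at 155.5, 204 and 405 normalized counts in WT libraries 10AF, 11AF and 12AF, and Ccng1 at 1461, 1913 and 3511. Both again follow the order of the skeletal muscle reads of these libraries, which were nearly absent at 30 weeks. The part of muscle in the falls with age was not tested, and the muscle covariate fit at 10 weeks is not given for these genes. Mdm4 differed from WT by -0.01 to 0.11. Among 21 regulators of the family's genes and proteins, again 0 passed against WT. Trib3, a target of the integrated stress response, was at 14.7, 11.7 and 12.2 in WT and at 30.1, 25.8 and 37.7 in KO at 10 weeks (log2 fold change 1.20, limma adjusted p = 0.183). Stat5b had log2 fold changes of -0.49 in KO and -0.82 in A537T at that age (limma adjusted p = 0.239 and 0.746). Huwe1, the ubiquitin ligase that marks MCL1 for degradation, differed from WT by -0.24 to 0.34, and Usp9x, which removes that mark, by -0.11 to 0.01. With age in WT, Stat3 (0.44, limma adjusted p = 0.0180) and Huwe1 (0.39, adjusted p = 0.0372) rose and Stat5b fell (-1.30, adjusted p = 0.00397). These were the calls among 21 tested, beside 12.3% of all genes. Jun fell in A537T (-1.44, limma adjusted p = 0.00629), the only 1 of 21 called there, beside 6.26% of all genes. Skeletal muscle reads differ between the ages in both genotypes, and their part was not tested. The median log2 fold change of these 5 lists lay between -0.23 and 0.23 in the 4 comparisons with WT.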

How the data were processed

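RNA was sequenced on the Illumina NovaSeq platform. The submitters' processing notes name Trim Galore 0.4.1 with cutadapt 1.18, FastQC, STAR 2.7.3a, Salmon and DESeq2 1.26, on GRCm38.p6. The values analysed are a signal deposited by the authors: gene counts from Salmon, counted by strand and divided by a DESeq2 size factor for each library, in 4 tables of 6 libraries. Columns carry library names only and were placed in groups by table, WT being the libraries found in both tables of one age. Other deposited tables hold the authors' own fold changes and were not used.

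Whole reads were recovered from the steps of each column (at least 99.98% of values whole, tolerance 0.01 reads). WT reads differ between the 2 tables of an age, by a median of 0.391 to 1.39% a gene in each library. The difference was larger for some genes: the WT mean of Bid at 30 weeks was 35.0 normalized counts in the KO table and 39.9 in the A537T table. The KO tables were used for the shared scale of median-ratio size factors. limma 3.58.1 (mean trend, R 4.3.3) was run on log2 values with 1 added to each normalized count, for genes averaging at least 10, with Benjamini-Hochberg adjustment at 0.05, after the script was tested on simulated data. In the shared fit 15101 genes were tested. Fold changes are on that log2 scale and understate low genes. Alternatives were edgeR 4.0.16 and DESeq2 1.42.0 on recovered reads, pseudocount 8, minimum means of 1 and 100, scaling to the same total, no trend, marker covariates and leaving out each library. The seminal vesicle covariate at 10 weeks and in the shared fit, and leaving out pairs of libraries, were added after the data were seen. Exon lengths and positions are from GENCODE vM21 on GRCm38. Figures were drawn with matplotlib 3.10.9.

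The members and gene lists were chosen with earlier results of these data known. Genes of the other lists were named when called against WT, when among the 2 most abundant of a list, or when among the 2 largest changes at an unadjusted p under 0.05. Genes called with age, and Plxnb1's values, were named after their values were seen. Ddit3 had 2 entries with the same symbol and was left out.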

Additional observations from a re-analysis of the deposited data

How the results depend on the processing

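Against WT limma called no gene at all, so that a count of 0 members that stayed at 0 says nothing about stability. With age in WT, edgeR called 2 members (Bcl2l1 and Bcl2l11), and scaling to the same total or the seminal vesicle covariate, the latter chosen after seeing the data, called 0. Leaving out each library in turn gave 0 to 1 called members in KO at 10 weeks, 0 to 1 in KO at 30 weeks, 0 to 1 in A537T at 30 weeks (each time Bcl2) and 0 to 2 with age in WT. Scaling to the same total moved the median log2 fold change of all genes to 0.21 in KO and 0.15 in A537T at 10 weeks. No paired analysis was possible because the columns carry no replicate numbers. The cause of these shifts was not tested. Bbc3, Pmaip1 and Bid rest on few reads, which limits what could be detected for them.

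Of 34 member fold changes, 17 changed sign under at least 1 alternative. In KO at 10 weeks, the same total gave log2 fold changes of 0.15 for Mcl1 and 0.047 for Bak1, the skeletal muscle covariate gave 0.033 for Mcl1 and -0.10 for Bax, and the seminal vesicle covariate gave -0.014 for Bcl2l1 and 0.015 for Mcl1. In KO at 30 weeks, the seminal vesicle covariate gave -0.0026 for Bid and 0.20 for Bad, which was 0.21 without libraries 4AF and 6AF. In A537T at 10 weeks, the skeletal muscle covariate gave -0.46 for Bcl2, -0.083 for Bcl2l1, -0.023 for Bak1 and -0.061 for Bcl2l11. In A537T at 30 weeks, Bax was at 0.0052 with the same total, 0.16 with the seminal vesicle covariate and 0.19 without 7AF and 9AF, and Bcl2l11 at 0.0045 with the covariate and 0.012 without both libraries. The pairs of libraries left out were also chosen after seeing the data. With 1 library left out, the log2 fold change lay between -0.44 and 0.034 for Bak1 in KO at 10 weeks. In KO at 30 weeks it lay between -0.082 and 0.18 for Bcl2l1, -0.011 and 0.14 for Mcl1, and -0.083 and 0.20 for Bax. In A537T at 10 weeks it lay between -0.16 and 0.50 for Bcl2, -0.072 and 0.30 for Bcl2l1, -0.12 and 0.11 for Bax, -0.26 and 0.26 for Bak1, and -0.028 and 0.12 for Bcl2l11. In A537T at 30 weeks it lay between -0.17 and 0.13 for Bax and between -0.11 and 0.060 for Bad.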
